A study of Mus musculus with 4 samples.

Results

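The genes described here serve glutathione use and defence against oxidative stress, read in jejunal epithelium labelled as lacking both Hnf4a and Cdx2. Alpha class glutathione transferases rose there, and the surface enzymes that break glutathione down fell. The 38 members were chosen by name as rows of the expression table, out of 22467 gene symbols, and they were sorted by role into 19 glutathione transferases, 6 genes of glutathione synthesis, recycling and breakdown, 9 peroxidases and dismutases and 4 other genes of the NRF2 type. All 38 were found in the table, and all had a mean of at least 1 FPKM in both groups, so none entered through 1 group alone. FPKM is the number of fragments scaled to transcript length and to library size, so levels can be compared between genes.

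The study compared 2 libraries labelled Hnf4a;Cdx2 double-knockout with 2 libraries labelled Cre- control, all from epithelium of the jejunum. The mice were adult and of mixed background, given as 129xC57/Bl6xSvJ. Animals of both groups received 1 mg of tamoxifen on each of 5 days, so controls differ in carrying no Cre. Which promoter drives Cre and which exons it deletes are not given in the sources used, and that a library is 1 animal rests on the labels' word for a biological replicate. Epithelium was freed in 5 mM EDTA for 45 minutes and is a mixture of cell types, in which fewer cells of a type and less RNA per cell cannot be told apart.

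Glutathione is a small peptide with a reactive thiol that cells make from glutamate, cysteine and glycine. Transferases attach it to reactive compounds, peroxidases spend it to reduce peroxides, and glutathione reductase restores it. Surface enzymes cleave it outside the cell so that its amino acids can be taken up again. NRF2, encoded by Nfe2l2, is the transcription factor known to raise many of these genes under oxidative or electrophile stress, and the small intestine is known for its high transferase levels.

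The labels were checked against the targeted genes, Hnf4a and Cdx2. Hnf4a had 31.6 and 48.2 FPKM in the libraries labelled double knockout, against 156 and 202 FPKM in control libraries (log2 fold change -2.16 ± 0.27, SE; limma, adjusted p = 0.0147). Cdx2 had 159.8 and 161 FPKM in the libraries labelled double knockout, against 70.9 and 65.2 FPKM in control libraries (log2 fold change 1.23 ± 0.15, SE; limma, adjusted p = 0.0150). The direction of Cdx2 goes against its label, and a value over the whole gene cannot show whether some exons were deleted, so each direction given below for the libraries labelled double knockout rests on the labels. Hnf4a lost its call when either control library was left out (limma, adjusted p = 0.0647 and 0.0885), and Cdx2 lost it whichever library was left out (0.0503 to 0.0887).

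Across the 38 members limma called 7 higher and 7 lower at an adjusted p under 0.05, and 24 were not called. Over all 10886 genes tested, limma called 9.65% in either direction, 3.79% higher and 5.85% lower, against 36.8%, 18.4% and 18.4% of the members. The members were chosen with earlier results of these data known, and Gsta1 and Gsta2 cannot be fully separated. The contrast of shares is therefore a description. Counts for smaller groups below are to be read against the same shares of all genes. The median log2 fold change was 0.10 over the members and 0.025 over all genes tested. The 7 members that rose were all transferases, while those that fell were 1 transferase, 3 genes of synthesis and breakdown, 2 glutathione peroxidases and catalase. Outside the Gsta and Gstm genes 1 of 28 members was called higher, where 3.79% of all genes tested were, and 7 were called lower. The larger share called higher thus came from the Gsta and Gstm genes, which are not all alike in sequence. Of the stretches of read length in Gsta3 and Gsta4, 0% also occurred in another gene. Among the 29 members with under 10% of such stretches shared, a choice made after seeing the data, 4 were called higher. The groups did not overlap in 24 members (63.2%), a share close to the 60.7% of all genes tested, so that separation is no result about these genes. With 2 libraries in each group the smallest p of an exact permutation test is 0.333, so the calls rest on the fit across all genes.

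**Figure D1:**
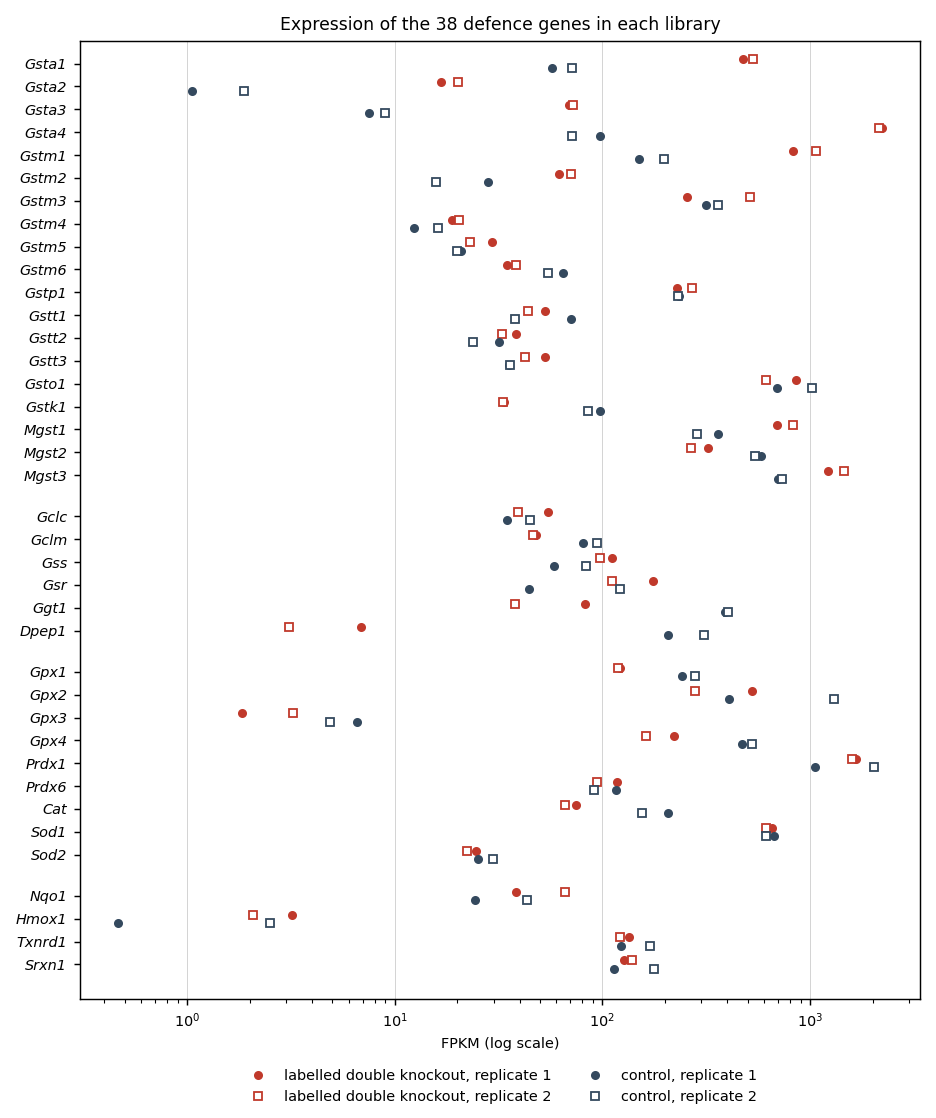
FPKM on a log axis of each of the 38 members in the 4 libraries, with 1 row per gene and the role groups set apart; red marks are the libraries labelled double knockout and dark marks the controls. Gsta1 to Gsta4 lie to the right of both controls and Dpep1 and Ggt1 to the left, while the marks of Prdx1, Gpx2 and Gsr interleave.

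The alpha class transferases made the highest rise of the module. Gsta4, an enzyme known for conjugating aldehydes formed when lipids are oxidized, had 2225 and 2145 FPKM in the libraries labelled double knockout, against 97.3 and 71.4 FPKM in control libraries. Its mean FPKM was 25.9-fold higher, and the log2 fold change of FPKM + 1 was 4.69 ± 0.22 (SE; by limma, adjusted p = 0.00164). Gsta4 thereby held the highest mean level of all 38 members in the libraries labelled double knockout. Gsta3 had 68.7 and 72.0 FPKM in the libraries labelled double knockout, against 7.50 and 9.02 FPKM in control libraries (log2 fold change 2.95 ± 0.16, SE; limma, adjusted p = 0.00233). It lies on chromosome 1 (21230666 to 21255656, mm9), apart from the other alpha genes, which lie close together on chromosome 9 (Gsta4 at 78039773 to 78057156, Gsta1 at 78078476 to 78090490 and Gsta2 at 78178827 to 78194952).

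Gsta1 and Gsta2 are nearly the same gene in sequence, and their values cannot be fully separated. Gsta1 had 475 and 533 FPKM in the libraries labelled double knockout, against 57.4 and 71.7 FPKM in control libraries (log2 fold change 2.95 ± 0.19, SE; limma, adjusted p = 0.00369). Gsta2 had 16.6 and 20.2 FPKM in the libraries labelled double knockout, against 1.06 and 1.88 FPKM in control libraries (log2 fold change 2.99 ± 0.23, SE; limma, adjusted p = 0.00576). The groups did not overlap for either gene, as in 60.7% of all genes tested. The value of Gsta2, which is low in controls, depends on the pseudocount: with 0.1 FPKM in place of 1 it was 3.60, and the ratio of mean FPKM was 12.5. Their coding sequences were 97.5% identical, against 65.5% between Gsta1 and Gsta4 and 73.4% between Gsta1 and Gsta3, in GENCODE M21 on GRCm38. Of the windows of 75 bases (the read length) in the transcripts of Gsta1, 86.3% also occurred in a transcript of another gene, most often the predicted gene Gm3776. The share was 33.5% for Gsta2 and 0 for both Gsta3 and Gsta4, whose reads can be placed without that ambiguity. Gm3776 itself had 45.2 and 56.1 FPKM in the libraries labelled double knockout, against 5.59 and 11.5 FPKM in control libraries (log2 fold change 2.50 ± 0.34, SE; limma, adjusted p = 0.0176). Since Gsta1 shared 76.15% of its windows with Gm3776 and 30.34% with Gsta2, the values of Gsta1 and Gm3776 cannot be fully separated either.

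The first 75 coding bases of the alpha genes, shown because they decide which reads can be assigned, are given 5′ to 3′ with capitals at each base that differs from Gsta1. The genes lie at chr9:78230656-78242684 (Gsta1, plus strand), chr9:78331018-78355788 (Gsta2, minus), chr1:21240589-21265661 (Gsta3, plus) and chr9:78182774-78209349 (Gsta4, plus) on GRCm38.
Gsta1: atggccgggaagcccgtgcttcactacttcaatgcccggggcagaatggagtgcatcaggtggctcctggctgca
Gsta2: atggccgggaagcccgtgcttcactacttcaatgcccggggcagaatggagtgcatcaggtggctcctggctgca
Gsta3: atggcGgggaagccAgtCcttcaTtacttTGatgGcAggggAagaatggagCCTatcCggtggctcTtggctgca
Gsta4: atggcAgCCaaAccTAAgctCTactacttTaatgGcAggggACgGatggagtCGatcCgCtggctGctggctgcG
Gsta2 had 0 bases unlike Gsta1 in this stretch, Gsta3 had 14 and Gsta4 had 21. A read from this stretch of Gsta1 or Gsta2 fits both genes, while 1 from Gsta3 or Gsta4 does not.

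Of the 6 mu class transferases, which lie in a row on chromosome 3, 2 rose. Gstm1 had 825 and 1064 FPKM in the libraries labelled double knockout, against 150.2 and 198 FPKM in control libraries (log2 fold change 2.44 ± 0.24, SE; limma, adjusted p = 0.00895). Gstm2 had 61.9 and 70.6 FPKM in the libraries labelled double knockout, against 28.3 and 15.8 FPKM in control libraries (log2 fold change 1.599 ± 0.30, SE; limma, adjusted p = 0.0394). Both stood above both controls, where the groups were separate in 60.7% of all genes tested. Of their 75-base windows 12.3% and 2.77% were shared with other genes. Their neighbours did not follow as calls. Gstm3, which is abundant, had 255 and 516 FPKM in the libraries labelled double knockout, against 315 and 360.5 FPKM in control libraries, and the groups overlapped (log2 fold change 0.11 ± 0.37, SE; limma, adjusted p = 0.881). Gstm6 was at 34.7 and 38.2 FPKM in the libraries labelled double knockout, against 64.3 and 54.5 FPKM in control libraries, and missed the threshold (log2 fold change -0.68 ± 0.17, SE; limma, adjusted p = 0.0704). Gstm4 and Gstm5 averaged 19.5 and 26.1 FPKM in the libraries labelled double knockout, against 14.3 and 20.4 FPKM in control libraries (limma, adjusted p = 0.209 and 0.288). The deposited locus of Gstm5 is shared with Eps8l3, which was at 154 FPKM in the knockout and 220.0 FPKM in the control of the authors' deposited table, and since strand is not stated the value of Gstm5 is uncertain.

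Among the microsomal transferases, membrane proteins of a separate family, 1 of 3 rose. Mgst1 had 691 and 830.0 FPKM in the libraries labelled double knockout, against 362 and 285 FPKM in control libraries (log2 fold change 1.23 ± 0.22, SE; limma, adjusted p = 0.0367). Mgst3, the second most abundant transferase, had 1226 and 1450.1 FPKM in the libraries labelled double knockout, against 701 and 736 FPKM in control libraries (log2 fold change 0.89 ± 0.21, SE; limma, adjusted p = 0.0671). Mgst2 had 324 and 266 FPKM in the libraries labelled double knockout, against 581 and 542 FPKM in control libraries (log2 fold change -0.93 ± 0.20, SE; limma, adjusted p = 0.0531). The groups did not overlap for any of the 3, as in 60.7% of all genes tested, and the last 2 lay just past the threshold. The authors' deposited table calls Mgst2 (q = 0.0359) and not Mgst3 (q = 0.0912).

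Gstk1, the kappa transferase of mitochondria and peroxisomes, was the only transferase that limma called lower. It had 33.7 and 33.1 FPKM in the libraries labelled double knockout, against 97.5 and 85.3 FPKM in control libraries (log2 fold change -1.42 ± 0.16, SE; limma, adjusted p = 0.0114). The pi, omega and theta classes were not called. Gstp1, the pi transferase, averaged 248 FPKM in the libraries labelled double knockout and 232 FPKM in control libraries (limma, adjusted p = 0.775), with 44.5% of its windows shared with Gstp2 or Gstp-ps. Gsto1, the omega transferase, averaged 735 FPKM in the libraries labelled double knockout and 858 FPKM in control libraries (limma, adjusted p = 0.687). The theta genes Gstt1, Gstt2 and Gstt3 had log2 fold changes of -0.10, 0.36 and 0.41 (limma, adjusted p = 0.870, 0.318 and 0.209).

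Summed over the 19 transferases, FPKM came to 7514 and 8082 in the libraries labelled double knockout, against 3556 and 3823 in control libraries. The 4 alpha genes held 37.1% and 34.3% of that sum in the libraries labelled double knockout, against 4.59% and 4.03% in control libraries, and Gsta4 alone held 29.6% and 26.5% against 2.74% and 1.87%. Microsomal transferases held the largest share in controls, 46.3% and 40.9%, where the libraries labelled double knockout had 29.8% and 31.5%. Without Gsta4 the sums were 5289 and 5937 FPKM in the libraries labelled double knockout, against 3458 and 3751 FPKM in control libraries. These sums are descriptions of the libraries and carry no test.

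**Figure D2:**
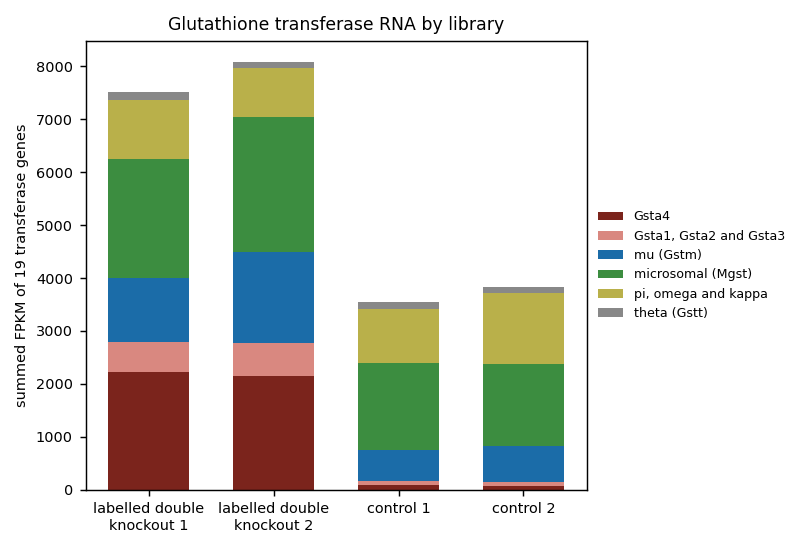
Summed FPKM of the 19 glutathione transferase genes in each library, stacked by class, with the libraries labelled double knockout left of the controls. The bars reach 7514 and 8082 FPKM in the libraries labelled double knockout and 3556 and 3823 FPKM in controls, and the dark red part, Gsta4, is 2225 and 2145 FPKM against 97.3 and 71.4 FPKM.

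Genes that break glutathione down at the cell surface fell most. Dpep1, a dipeptidase that cleaves the cysteinylglycine left from glutathione (chromosome 8, 125710135 to 125725713, mm9), had 6.87 and 3.09 FPKM in the libraries labelled double knockout, against 208 and 309 FPKM in control libraries. Its mean FPKM was 51.9-fold lower, and the log2 fold change of FPKM + 1 was -5.49 ± 0.38 (SE; by limma, adjusted p = 0.00422). Ggt1, the gamma-glutamyl transferase that takes the first step of that breakdown (chromosome 10, 75036338 to 75048927, mm9), had 82.6 and 37.9 FPKM in the libraries labelled double knockout, against 391 and 403 FPKM in control libraries. Its mean FPKM was 6.59-fold lower (log2 fold change -2.80 ± 0.38, SE; limma, adjusted p = 0.0177). The 2 steps of the breakdown were thus lower together, though the call of Ggt1 needed both control libraries. In both genes every library labelled double knockout lay under both controls, but the groups were also separate in 60.7% of all genes tested.

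Of the 3 genes that make glutathione 1 fell. Gclm, the modifier subunit of glutamate-cysteine ligase, had 47.6 and 46.5 FPKM in the libraries labelled double knockout, against 80.6 and 94.2 FPKM in control libraries (log2 fold change -0.88 ± 0.16, SE; limma, adjusted p = 0.0387). Gclc, the catalytic subunit of the same ligase, had 54.7 and 39.3 FPKM in the libraries labelled double knockout, against 34.6 and 44.8 FPKM in control libraries, and was not called (log2 fold change 0.23 ± 0.24, SE; limma, adjusted p = 0.567). The partners of 1 enzyme thus differed in outcome, although the difference between them was not tested. Gss, which adds glycine in the last step of synthesis, averaged 104 FPKM in the libraries labelled double knockout and 70.7 FPKM in control libraries (limma, adjusted p = 0.182). Gsr, the reductase that restores oxidized glutathione, had 176 and 112 FPKM in the libraries labelled double knockout, against 44.1 and 122 FPKM in control libraries, and the groups overlapped (log2 fold change 0.93 ± 0.52, SE; limma, adjusted p = 0.312).

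**Figure D3:**
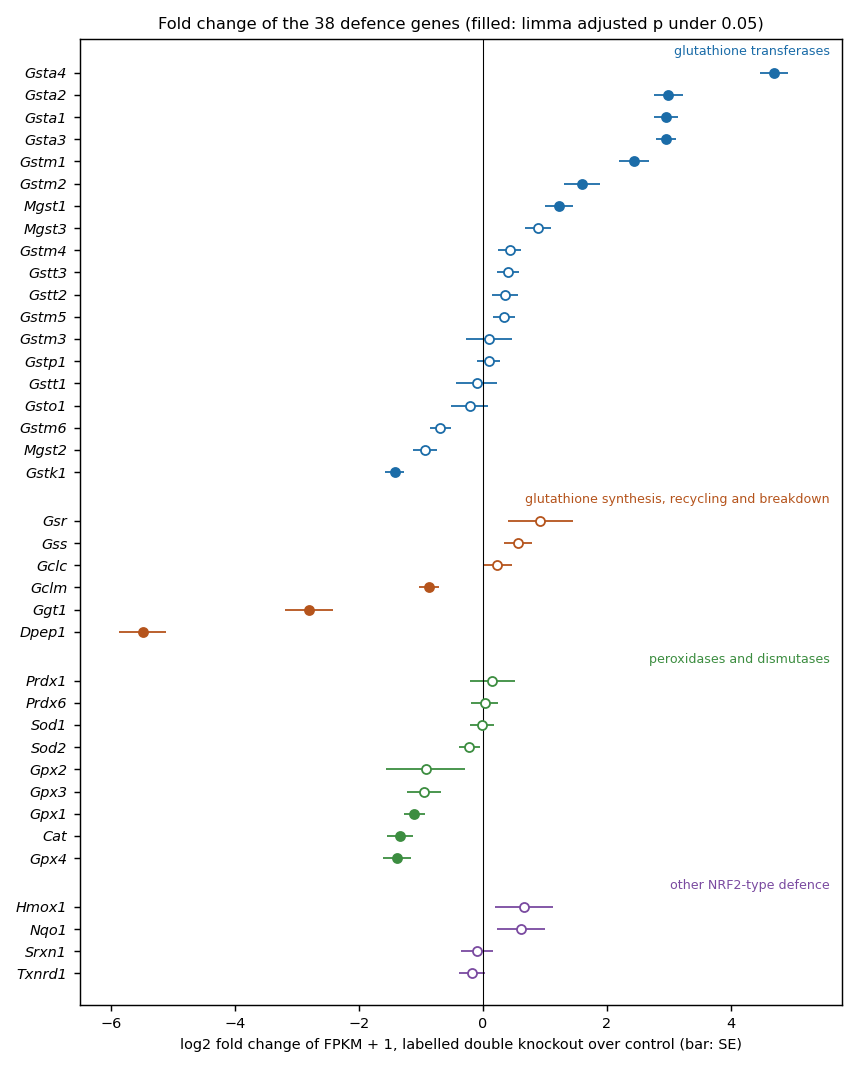
Log2 fold change of FPKM + 1, the libraries labelled double knockout over control, for each of the 38 members with its SE as a bar, sorted within each role group; filled marks have a limma adjusted p under 0.05. The filled marks on the right are Gsta4 at 4.69 down to Mgst1 at 1.23, and those on the left reach -5.49 at Dpep1.

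Among the 9 peroxidases, catalase and dismutases, 3 fell and 0 rose, where limma called 5.85% of all genes tested lower and 3.79% higher. Each of the 3 calls was lost in fits with a library left out, as given below. Gpx4, the selenoenzyme that reduces lipid peroxides in membranes, had 221 and 162 FPKM in the libraries labelled double knockout, against 470 and 526 FPKM in control libraries (log2 fold change -1.39 ± 0.23, SE; limma, adjusted p = 0.0276). Of its 75-base windows 46.2% also occurred in other annotated transcripts, among them the pseudogene Gpx4-ps2. Cat, the catalase of peroxisomes, had 74.4 and 65.7 FPKM in the libraries labelled double knockout, against 206 and 154 FPKM in control libraries (log2 fold change -1.34 ± 0.21, SE; limma, adjusted p = 0.0249). Gpx1, the cytosolic glutathione peroxidase, had 121 and 119 FPKM in the libraries labelled double knockout, against 242 and 279 FPKM in control libraries (log2 fold change -1.11 ± 0.17, SE; limma, adjusted p = 0.0240). In these 3 genes both libraries labelled double knockout stood under both controls, though the groups were also separate in 60.7% of all genes tested.

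The other 6 of this group were not called. Gpx2, the glutathione peroxidase of gut epithelium, had 528 and 278 FPKM in the libraries labelled double knockout, against 406 and 1302 FPKM in control libraries, so that the controls differed more from each other than the groups did (log2 fold change -0.92 ± 0.63, SE; limma, adjusted p = 0.397). Gpx3, a secreted form, was low, with 1.84 and 3.23 FPKM in the libraries labelled double knockout, against 6.59 and 4.86 FPKM in control libraries (limma, adjusted p = 0.0982). Prdx1, a peroxiredoxin that works with thioredoxin, was the most abundant member in controls and had 1668 and 1586 FPKM in the libraries labelled double knockout, against 1058 and 2026 FPKM in control libraries (log2 fold change 0.15 ± 0.37, SE; limma, adjusted p = 0.824). Sod1, the cytosolic superoxide dismutase, was not called, with 653 and 613 FPKM in the libraries labelled double knockout, against 669 and 612 FPKM in control libraries (log2 fold change -0.02 ± 0.19, SE; limma, adjusted p = 0.967). Sod2, the mitochondrial dismutase, and Prdx6 had log2 fold changes of -0.22 and 0.03 (limma, adjusted p = 0.447 and 0.946).

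None of the 4 other NRF2-type genes was called by limma. Txnrd1, the cytosolic thioredoxin reductase, had 134 and 122 FPKM in the libraries labelled double knockout, against 123 and 169 FPKM in control libraries (log2 fold change -0.17 ± 0.22, SE; limma, adjusted p = 0.642). Srxn1, the sulfiredoxin that repairs peroxiredoxins, had 127 and 139 FPKM in the libraries labelled double knockout, against 114 and 177 FPKM in control libraries (log2 fold change -0.09 ± 0.26, SE; limma, adjusted p = 0.845). In both genes the controls enclosed the libraries labelled double knockout or overlapped them. Nqo1, a quinone reductase, averaged 52.2 FPKM in the libraries labelled double knockout and 33.9 FPKM in control libraries and was not called (limma, adjusted p = 0.352). Hmox1, heme oxygenase, averaged 2.64 FPKM in the libraries labelled double knockout and 1.49 FPKM in control libraries (limma, adjusted p = 0.402). Nfe2l2, the gene of NRF2, had 106 and 149 FPKM in the libraries labelled double knockout, against 129 and 101 FPKM in control libraries (limma, adjusted p = 0.753). Its inhibitor Keap1 averaged 20.4 FPKM in the libraries labelled double knockout and 18.9 FPKM in control libraries (limma, adjusted p = 0.803). These misses do not show that the levels are the same, since the SE of each difference reaches up to 0.46 log2 units in this group.

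The 2 controls differed from each other for several of these genes. In 15 of the 38 members (39.5%) the difference between the controls was larger than the difference between the groups, against 39.3% of all genes tested, so the count is no result about the module. All 4 NRF2-type genes were among the 15, and all 4 were higher in control replicate 2 than in control replicate 1, as were Gpx2 (log2 difference 1.68), Gsr (1.44) and Prdx1 (0.94). Libraries were not equally deep. Low values in the table fell on common ratios between libraries, and 1 read was worth 1.54 and 2.01 times as much in replicates 1 and 2 labelled double knockout, and 1.46 times as much in control replicate 2, as in control replicate 1, which was thus the deepest.

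**Figure D4:**
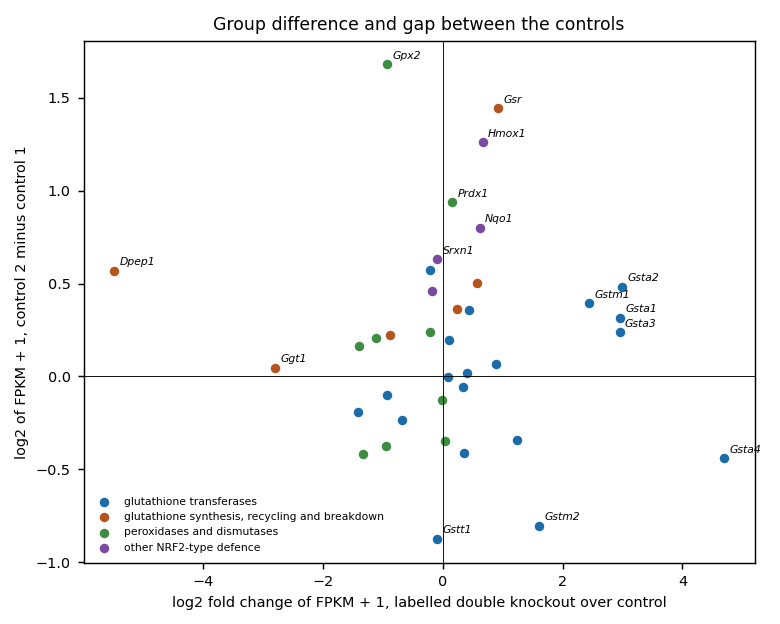
For each of the 38 members, the log2 fold change between groups on the x axis and the log2 difference of control replicate 2 minus control replicate 1 on the y axis, both of FPKM + 1, coloured by role. Gsta4 and Dpep1 lie far out along x, while Gpx2 and Gsr lie at 1.68 and 1.44 along y.

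Only some calls were kept when a library was left out, and the control libraries mattered most. Gsta1, Gsta2, Gsta3, Gsta4 and Dpep1 stayed called in all 4 such fits and under all 13 alternatives tried (limma, adjusted p of at most 0.0356 for the Gsta genes and 0.0431 for Dpep1 in the fits with a library left out). Gstm1, Gstk1 and Ggt1 lost the call when control replicate 1 was dropped (adjusted p by limma of 0.0590, 0.0631 and 0.0916), and also when control replicate 2 was (0.0507, 0.0623 and 0.106). Gpx4 kept it only without replicate 1 of those labelled double knockout (0.0382). Gstm2, Mgst1, Gclm, Gpx1 and Cat lost it whichever library was left out, with limma adjusted p-values of 0.0515 to 0.140, 0.0749 to 0.140, 0.0907 to 0.144, 0.0766 to 0.110 and 0.0630 to 0.0971. The share of all genes called also shrank in these fits, to 6.30% and 4.69% without a library labelled double knockout and to 1.55% and 1.44% without a control.

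**Figure D5:**
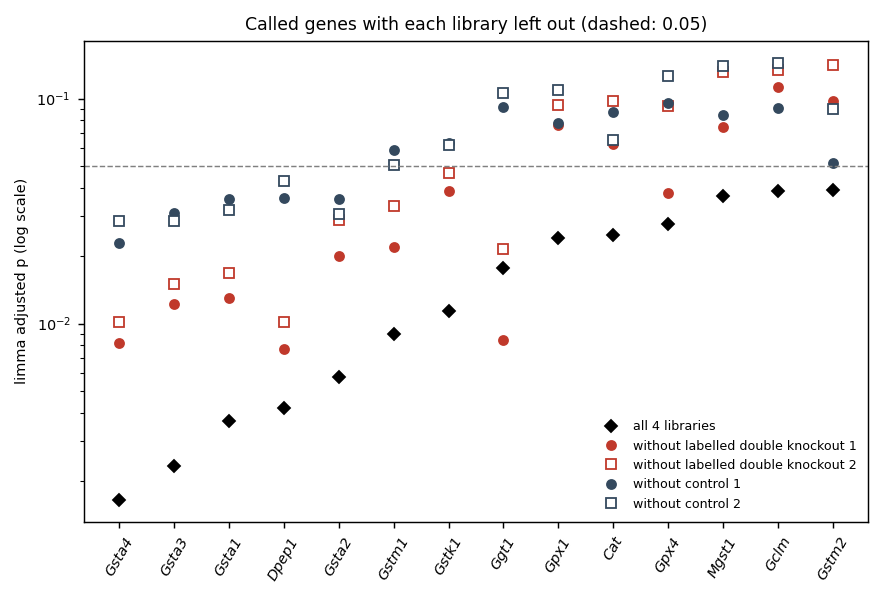
Limma adjusted p on a log axis for the 14 called members, with all 4 libraries (diamonds) and with each library left out in turn; the dashed line is 0.05. All marks of Gsta4, Gsta3, Gsta1, Dpep1 and Gsta2 lie under the line, while leaving out either control takes the other 9 above it.

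The authors' deposited table, computed from the same libraries, calls 7 members higher and 7 lower, where it calls 5.90% of its 11594 tested rows higher and 7.31% lower. Of these, 13 were also called by limma. The deposited table does not call Gclm (q = 0.0535), which limma called, and it calls Mgst2, which limma did not.

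Genes elsewhere in the pathway were read from 4 further lists of 80 names, of which 78 were in the table and 64 passed the filter of a mean of 1 FPKM. Limma called 4 higher and 7 lower, and the median log2 fold change was 0.015. That is 17.2% called, 6.25% higher and 10.9% lower, against 9.65%, 3.79% and 5.85% of all genes tested. Around glutathione turnover and export, 1 of 12 rose and 3 fell. Cth, which makes cysteine from cystathionine, had 4.11 and 7.96 FPKM in the libraries labelled double knockout, against 58.1 and 65.8 FPKM in control libraries (log2 fold change -3.21 ± 0.30, SE; limma, adjusted p = 0.00809). Among the exporters of glutathione conjugates Abcc3, of the basolateral membrane, rose (log2 fold change 1.72 ± 0.21, SE; limma, adjusted p = 0.0147), and Abcc2, of the apical membrane, fell (-1.10 ± 0.20, SE; limma, adjusted p = 0.0372). The other exporters listed, Abcc1 and Abcc4, had higher means in the libraries labelled double knockout but were not called (limma, adjusted p = 0.101 and 0.245). Ggct, which degrades gamma-glutamyl dipeptides, fell to 1.43 and 1.02 FPKM in the libraries labelled double knockout, against 5.14 and 4.03 FPKM in control libraries (limma, adjusted p = 0.0274).

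Of 22 other peroxidases, thioredoxins, glutaredoxins and repair genes 2 rose and 2 fell. Prdx4, the peroxiredoxin of the endoplasmic reticulum, rose 2.76-fold and Txnip, the thioredoxin-interacting protein, 1.76-fold (limma, adjusted p = 0.0398 and 0.0485). Sesn1, a sestrin, was 4.35-fold lower and Msra, which reduces oxidized methionine, was 3.12-fold lower (limma, adjusted p = 0.0325 and 0.0112). Among 22 NRF2 regulators and further targets 1 rose and 1 fell, a share of 9.09% that is near the 9.65% of all genes. Cbr3, a carbonyl reductase, had 53.2 and 57.9 FPKM in the libraries labelled double knockout, against 1.07 and 6.49 FPKM in control libraries (log2 fold change 3.84 ± 0.61, SE; limma, adjusted p = 0.0254). Its controls differed widely, and the log2 fold change was 2.92 without control replicate 1 and 4.77 without control replicate 2. Sqstm1, an autophagy receptor that binds Keap1, fell 1.98-fold (limma, adjusted p = 0.0270). In the list of further transferases Ltc4s, the leukotriene synthase, was 2.90-fold lower, 1 of 8 (limma, adjusted p = 0.0109). Each of these 11 calls was lost when at least 1 library was left out. Those of Ggct, Abcc2, Prdx4, Txnip and Sqstm1 were lost whichever library was left out.

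Promoter sequence was read from a set of RefSeq promoters (GRCm38.p6) that held 32 of the 38 members. The set used had no entry for Gsta4, Gsr, Gclc, Gstt2, Prdx6 and Hmox1, which does not mean that RefSeq lacks their starts. The 250 bases before each start were searched on both strands for the core of the antioxidant response element, TGACNNNGC, which NRF2 is known to bind. It occurred in 8 of the 32 members (25.0%), against 11.5% of all 27025 genes in that set. These windows are shown for members whose values differ in direction, with the match in capitals on the strand of the gene, so that a match on the other strand reads as its reverse complement.
Gsta3: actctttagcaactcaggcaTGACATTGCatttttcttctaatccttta
Mgst1: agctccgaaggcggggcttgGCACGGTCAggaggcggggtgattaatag
Gclm: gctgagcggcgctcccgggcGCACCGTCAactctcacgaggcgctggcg
Prdx1: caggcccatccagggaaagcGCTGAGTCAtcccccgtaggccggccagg
Txnrd1: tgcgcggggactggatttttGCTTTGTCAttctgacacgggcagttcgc
They lie at chr1:21240444-21240492, chr6:138140451-138140499, chr3:122245403-122245451, chr4:116685446-116685494 and chr10:82859094-82859142, all on the plus strand. Of these 5 genes Gsta3 and Mgst1 rose, Gclm fell, and Prdx1 and Txnrd1 were not called. The other 3 with a match were Ggt1, which fell, and Gstm5 and Sod1, which were not called. The HNF4 motif CAAAGTCCA occurred in 0 of the 32 members, against 0.45% of all genes, and the CDX motif TTTATG in 5 (15.6%, against 12.4%), namely Gpx2, Gss, Gstm5, Gstm6 and Mgst1. A match is a description of these letters, not a bound site, and its absence says only that these letters are not in this window.

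Markers of other cells were read beside these results. The epithelial markers Epcam, Cdh1, Krt8, Krt18, Krt19, Krt20, Vil1 and Cldn7 were all detected, with sums of 9198 and 9829 FPKM in the libraries labelled double knockout, against 7358 and 8971 FPKM in control libraries, and of these 8 Krt19 rose while Epcam and Vil1 fell. Of 10 enterocyte genes, Lct and Sis fell and 8 were not called by limma. The 11 gastric markers had sums of 3357 and 1548 FPKM in the libraries labelled double knockout, against 1.32 and 0.721 FPKM in control libraries. All 6 that were tested rose, but their control means were at most 0.312 FPKM. They passed the filter only through the libraries labelled double knockout, so a rise in all 6 is no separate result. Muc5ac, Muc6 and Atp4b stayed under 1 FPKM in each library, and Tff1 and Lipf were listed at 0 in all libraries. The part of this gastric shift in the rise of the alpha transferases was not tested. Macrophages are known to express Hmox1. Their markers summed to 4.08 and 6.16 FPKM in the libraries labelled double knockout, against 13.5 and 43.6 FPKM in control libraries. Lyz2 made up most of both control sums, and its controls differed by 1.90 log2 units. Of the 3 markers tested Itgam fell (limma, adjusted p = 0.0410), and Lyz2 and C1qb were not called (0.0740 and 0.401). The sums thus do not show that macrophage markers fell as a set, and the part of macrophages in the results was not tested. T lymphocyte markers summed to 13.0 and 24.3 FPKM in the libraries labelled double knockout, against 15.1 and 22.4 FPKM in control libraries (0 of 5 called). Of 9 markers of red blood cells only 4 had values, and Hba-a1, Hba-a2, Hbb-b1, Hbb-b2 and Hbb-bs were missing. The 4 summed to 0.0435 and 2.33 FPKM in the libraries labelled double knockout, against 1.25 and 1.65 FPKM in control libraries. With most globins missing, these sums cannot show how many red blood cells were present. Those of fibroblasts and smooth muscle summed to 0.771 and 5.32 FPKM in the libraries labelled double knockout, against 2.96 and 3.64 FPKM in control libraries, and those of endothelium stayed under 1 FPKM in each library.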

How the data were processed

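RNA was measured by sequencing of single-end reads of 75 bases from 4 libraries, whose titles give genotype and replicate number. The submitters' processing notes name TopHat2 2.0.9, Cufflinks 2.1.1, Cuffnorm, Cuffdiff and build mm9. The authors deposited expression values in 23735 rows with no unit in the header; these were taken as FPKM, the unit that the file headers of each library's own table name. Per the file headers, the authors' comparison holds FPKM per group with a score (its test statistic), a p-value and a q-value. Read totals are not given, so depth is unknown beyond the ratios in the text and no counting error is printed.

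Rows sharing a symbol were summed, and short RNA symbols (1025) were dropped. The 10886 genes whose mean reached 1 FPKM were tested by genotype in limma 3.58.1 (R 4.3.3), after log2(FPKM + 1), with an intensity trend, two-sided, and Benjamini-Hochberg adjustment across all of them. On this scale low genes appear to change less than they did. The procedure was also run on simulated data with large planted changes and with spreads shuffled across genes. That run does not bear on smaller changes such as that of Gclm. If replicates are not separate animals, p-values measure technical spread. Locus starts were raised by 1, since the widths of deposited loci showed them to count from 0.

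Members and lists were chosen with earlier results of these data known. Values in every library are given for each called member and the 2 most abundant of each role group; other members given so were chosen after their values were seen. From each further list, up to 2 called genes in each direction are named, and Abcc1, Abcc2, Abcc4, Nfe2l2 and Keap1 were added after their values were seen. A comparison of proteins was planned, and coding sequence was used in its place. Alternatives changed the pseudocount, filter, scaling, FPKM source, variance model and replicate block, and left out each library or the Gsta and Gstm genes.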

Additional observations from a re-analysis of the deposited data

How the results depend on the processing

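With 2 libraries per group, leaving out 1 library took the genes called to between 157 and 685, the members called higher to between 4 and 5, the members called lower to between 1 and 4, and the further pathway genes called to between 1 and 5; Hnf4a then had log2 fold changes of -2.46 to -1.86 and Cdx2 of 1.17 to 1.29. The lone library left in a group is assumed to vary like the others. With the replicate number as a replicate block, 5 members were called higher (Gstm2 and Mgst1 lost), 4 were called lower (Gclm, Gpx1 and Gpx4 lost) and 7 further pathway genes were called; same-numbered libraries did not deviate together (r = -0.005 across genes), and no label says that a number marks a shared litter or day, so the fit without the block was kept; with 2 pairs the check is weak. With no filter but a mean above 0, 5 further pathway genes were called, and Gstm2, Mgst1, Gclm and Gpx4 lost their calls. Without the Gsta and Gstm genes 1 of 28 members was called higher, where 3.79% of all genes tested were. Among the 29 members with under 10% of windows shared, a choice made after seeing the data, 4 were called higher. The FPKM of each library's own file moved the median of all genes to 0.17 and that of the members to 0.25; of the 14 member calls Gclm alone was lost there. Changes of sign occurred in members that limma did not call, and the cause was not tested. With each library's own file these were Gstt1 (0.031), Sod1 (0.092), Sod2 (0.027) and Srxn1 (0.058, and 0.057 after quantile normalization). With 1 library left out they were Gstm3 (range -0.403 to 0.613), Gstp1 (-0.029 to 0.214), Gstt1 (-0.539 to 0.336), Gsto1 (-0.501 to 0.073), Gclc (-0.001 to 0.465), Prdx1 (-0.316 to 0.62), Prdx6 (-0.146 to 0.204), Sod1 (-0.08 to 0.047), Txnrd1 (-0.405 to 0.056) and Srxn1 (-0.409 to 0.221). The pseudocount of 0.1, the filters at 5 FPKM and at 1 FPKM in both groups, and median centring kept all 14 member calls, the pseudocount moving Gsta2 to 3.60. Mgst2 was also called after quantile normalization, and Mgst2 and Mgst3 without an intensity trend.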
